A study of Mus musculus with 4 samples.

Results

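Receptor tyrosine kinases are the growth factor receptors of the cell surface, and 10 of them with a known place in melanoma were followed here through 4 cultured B16 melanoma lines. The genes were Kit, Met, Egfr, Erbb2, Erbb3, Igf1r, Axl, Tyro3, Pdgfra and Fgfr1, chosen by symbol or older symbol among the 33012 probes of the array. A probe was found for 8 of the 10, 1 probe each, and Erbb2 and Erbb3 were not analysed here. Of these 8 genes, 5 were detected on at least 1 array, 4 of them on every array, and 3 were detected on none. A probe counted as detected where its S/N, the ratio of signal to noise, reached 3 and its error flag did not exceed 5000, which are the limits of the study's methods.

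The lines came from the melanoma of C57BL6 mice. B16 was the parental line, called B16F1 in the protocols. B16-RI was grown from lymph node metastases of mice injected in the skin of the back with the parental cells. B16-RII and B16-RIIL were grown from the lymph node and the lung metastases of mice injected with B16-RI, so that both had passed through 2 rounds. No line carried an engineered allele or received a drug, and all were compared as cultures in the same serum-containing medium. How many mice gave each line was not given in the sources used here, and each line is 1 derivation. RNA of 2 passage numbers was pooled for each line and 1 array per line was analysed, the one that the sample labels describe. The table also holds second arrays, which match no sample label and were not used here, so every difference below sets 1 array against another, has no replicate check and carries no test. The comparisons with B16 all share the B16 array.

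A receptor tyrosine kinase binds its ligand outside the cell, pairs with a second receptor, and phosphorylates tyrosines on its own tail, where adaptor proteins dock and pass the signal to the Ras-MAPK and PI3K-Akt pathways. Cbl-type ubiquitin ligases and Socs and Lrig proteins take the receptor out of action again. Melanocytes depend on Kit and its ligand, stem cell factor, for their migration into the skin and their survival, and they respond to hepatocyte growth factor through Met. In melanoma, Met, Igf1r, Axl and the ErbB receptors are known for their part in invasion and in resistance to drugs against the MAPK pathway.

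The promoters of Met and Kit are shown because, of the receptors detected in B16-RIIL, these were the ones past the 2-fold limit above B16 there under each scaling of the arrays. Promoters of 8 of the 10 genes were found in the set of promoters used here, on build GRCm38.p6, and Erbb3 and Fgfr1 had no entry in that set. Each sequence is the 250 bases before the transcription start on the gene's own strand, 5′ to 3′, with matches to the searched motifs in capitals.
Met, chr6:17463707-17463956, plus strand: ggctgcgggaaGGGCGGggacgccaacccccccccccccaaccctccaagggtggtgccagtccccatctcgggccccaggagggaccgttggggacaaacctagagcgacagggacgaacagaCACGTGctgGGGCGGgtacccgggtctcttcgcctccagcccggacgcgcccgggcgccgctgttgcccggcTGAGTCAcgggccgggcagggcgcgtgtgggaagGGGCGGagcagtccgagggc
Kit, chr5:75574737-75574986, plus strand: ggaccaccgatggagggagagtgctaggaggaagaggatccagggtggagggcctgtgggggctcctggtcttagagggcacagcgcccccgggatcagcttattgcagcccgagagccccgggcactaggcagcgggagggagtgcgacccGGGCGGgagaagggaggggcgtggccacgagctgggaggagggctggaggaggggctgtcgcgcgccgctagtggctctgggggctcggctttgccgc
Both windows were rich in G and C, with 74.0% in Met and 70.8% in Kit against a median of 52.4% over 32851 promoters of 27025 genes. The motifs searched on both strands were the E-box of Mitf and other basic helix-loop-helix factors (CACGTG), its variant with another centre (CATGTG), the GC box (GGGCGG) and the AP-1 site (TGACTCA). The Met window held 1 CACGTG that began 126 bases before the start, 3 matches to GGGCGG and 1 to TGACTCA, read on the other strand, that began 54 bases before the start, and none of these matches overlapped. The Kit window held 1 GGGCGG, 98 bases before the start, and no match to the other motifs. CACGTG was in 6.02% of all promoters, CATGTG in 12.3%, GGGCGG in 32.7% and TGACTCA in 4.46%. These are matches of letters and not measured sites.

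Kit is the receptor of stem cell factor. Its probe (mCG128266.1, chromosome 5) gave a normalized signal of 5.16 in B16, 4.80 in B16-RI, 9.18 in B16-RII and 19.27 in B16-RIIL. The B16 and B16-RI arrays were close to each other, B16-RII lay above both, and B16-RIIL was the highest. The signal was well above noise on every array, with an S/N between 14.71 and 28.88. Against B16, Kit was 3.73-fold higher in B16-RIIL (1.90 on the log2 scale) and 1.78-fold higher in B16-RII (0.83), while B16-RI differed by -0.10. Among the 11604 probes detected on every array, 56 had a higher difference between B16-RIIL and B16 than Kit. Between the lines of the second round, Kit was 2.10-fold higher in the lung line B16-RIIL than in the lymph node line B16-RII. In the same comparison, 3 of 9 lung epithelial marker genes (Epcam, Cdh1 and Scgb1a1) and 2 of 9 fibroblast genes (Col1a2 and Lum) were also above B16-RII, where 3.85% of all probes were. Of these, Scgb1a1 and Lum were detected in B16-RIIL alone, Epcam and Cdh1 in B16 and B16-RIIL, and Col1a2 in every line, and the part of such cells in the Kit signal was not tested.

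Met is the receptor of hepatocyte growth factor. Its probe (mCG13466.1, chromosome 6) read 3.42 in B16, 3.38 in B16-RI, 8.92 in B16-RII and 11.86 in B16-RIIL. Both lines of the second round were above both earlier arrays, and B16 and B16-RI were almost level. The S/N was 9.32 and 5.59 on the earlier arrays, and 32.05 and 40.12 on B16-RII and B16-RIIL. Met was 2.61-fold higher in B16-RII than in B16 (1.38 on the log2 scale) and 3.47-fold higher in B16-RIIL (1.79). Higher differences from B16 were found for 211 of the 11604 probes in B16-RII and for 68 in B16-RIIL. B16-RIIL was 1.33-fold above B16-RII, below the 2-fold limit.

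Igf1r, the receptor of the insulin-like growth factors, had its highest signal in the lymph node line of the second round. The normalized signal of its probe (mCG13842.2, chromosome 7) was 11.79 in B16, 14.05 in B16-RI, 25.02 in B16-RII and 15.11 in B16-RIIL, with an S/N of 19.48 or more. B16-RII stood above the other lines, which lay close together. It was 2.12-fold above B16 (1.09 on the log2 scale), against 1.19-fold for B16-RI and 1.28-fold for B16-RIIL. This difference was past 2-fold under 1 of the 5 scalings of the arrays, as deposited, and was 0.49 on the log2 scale after quantile normalization.

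Axl and Tyro3 belong with Mertk to a family whose ligands are Gas6 and protein S. The Axl probe (mCG126976.1, chromosome 7) read 5.58 in B16, 10.01 in B16-RI, 10.51 in B16-RII and 7.28 in B16-RIIL, with an S/N of 23.1 to 29.57. Axl was highest in the lymph node lines and lowest in B16, and no line passed the 2-fold limit: B16-RI was 1.79-fold, B16-RII 1.88-fold and B16-RIIL 1.30-fold above B16. Which lymph node line was the higher changed with the scaling of the arrays. The Tyro3 probe (mCG9716.2, chromosome 2) was detected on the B16-RI array alone. Its signal was 0.92 in B16, 1.59 in B16-RI, 0.79 in B16-RII and 1.38 in B16-RIIL, and its S/N was 4.25 in B16-RI and 2.03 or less elsewhere. B16-RI exceeded B16 by at least 1.73-fold, a bound because B16 was not well above background.

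Pdgfra, Egfr and Fgfr1, the receptors of platelet-derived, epidermal and fibroblast growth factors, were not well above background on any array, and no fold is given for them. The Pdgfra probe (mCG18259.2, chromosome 5) gave 0.35, 0.74, 0.63 and 1.16 in B16, B16-RI, B16-RII and B16-RIIL, with its highest S/N, 1.76, in B16-RIIL. The Egfr probe (mCG140518, chromosome 11) gave 0.64, 0.80, 0.84 and 0.46 in the same order. The Fgfr1 probe (mCG14521.3, chromosome 8) gave 0.42, 0.92, 0.45 and 0.65. The S/N of Egfr and Fgfr1 was at most 0.36. Such signals place these genes below what this array could detect and do not show that they are absent.

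**Figure D1:**
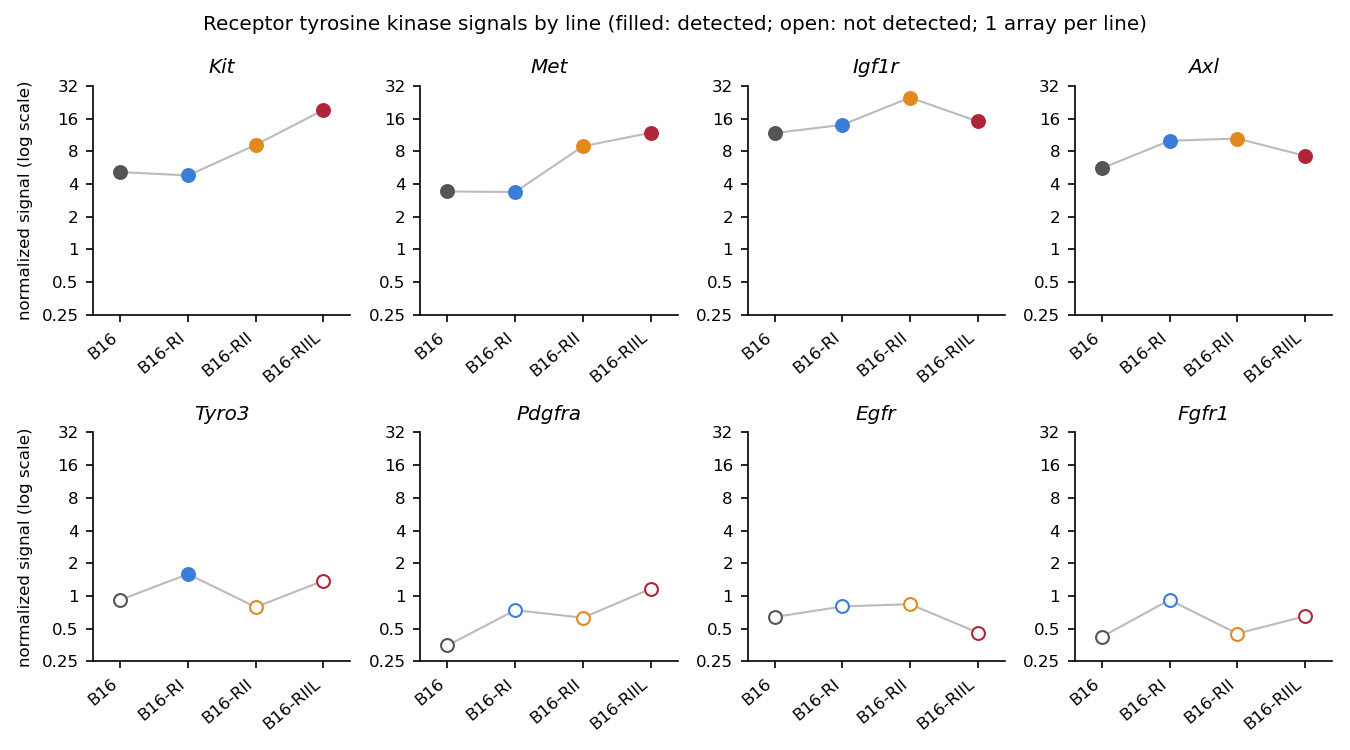
Normalized signal (log axis) of the 8 receptor probes in the 4 lines, 1 array per line, with filled points for detected and open points for not detected signals. Kit goes from 5.16 in B16 to 19.27 in B16-RIIL and Met from 3.42 to 11.86, while Pdgfra, Egfr and Fgfr1 are open in every line. Signals of different probes cannot be set against each other.

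A gene was called above or below where the arrays differed by at least 2-fold and the brighter one had detected it. In B16-RI, 0 of the 8 receptors were above B16 and 0 below, where 4.95% of all probes were above and 4.55% below. In B16-RII, 2 of 8 were above B16 (Met and Igf1r) against 6.51% of all probes, and 0 were below against 3.79%. In B16-RIIL, 2 of 8 were above B16 (Kit and Met) against 6.42%, and 0 were below against 4.25%. Kit alone was above B16-RII in B16-RIIL, where 3.85% of all probes were above, and 0 receptors were below, where 4.73% were. The median difference from B16 of the 4 receptors detected on every array was 0.12 in B16-RI, 1.00 in B16-RII and 1.09 in B16-RIIL on the log2 scale. Over all probes detected on both arrays it was 0.21, 0.40 and 0.21. No receptor lay near the B16-RIIL median, as Igf1r was at 0.36, Axl at 0.38, Met at 1.79 and Kit at 1.90.

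The scaling of the arrays moved these differences. The deposited signals left a median shift from B16 in the 2 probe sets into which the array was divided. Over the probes detected on every array, it was 0.39 in B16-RI, 0.41 in B16-RII and 0.46 in B16-RIIL in the set with Kit and Met, and 0.07, 0.42 and -0.01 in the set with Igf1r and Axl. With each set centred on its own median, Kit was 2.60-fold and Met 2.42-fold above B16 in B16-RIIL, and both were past the 2-fold limit there under all 5 scalings. In B16-RII, Met ranged from 0.96 to 1.53 on the log2 scale and was past the limit under 4 of 5 scalings, the exception being the centred sets. Kit ranged from 0.40 to 0.98 in B16-RII. The difference in Kit between B16-RIIL and B16-RII ranged from 0.97 to 1.07 and was past the limit under 3 of the 5. Kit and Met lay below B16 in B16-RI under each scaling, by -0.50 to -0.10 for Kit and by -0.41 to -0.02 for Met. Igf1r and Axl lay above B16 in all 3 passaged lines under each scaling, with the lowest values 0.07 and 0.15.

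**Figure D2:**
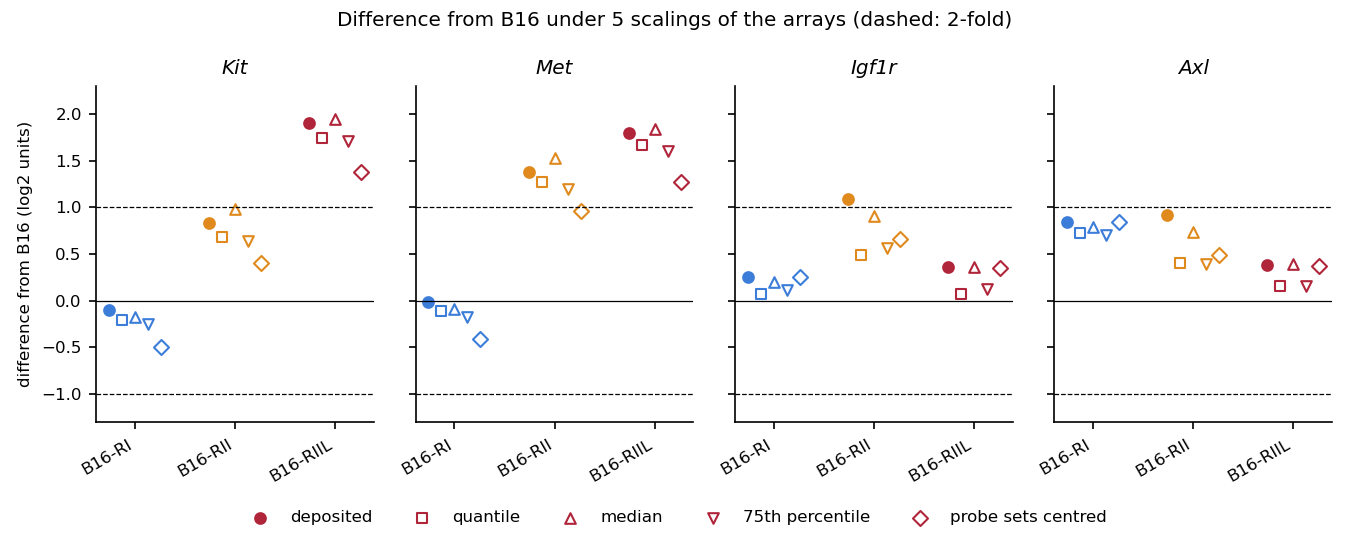
Difference from B16 in log2 units (vertical axis) of the 4 receptors detected on every array, in the 3 passaged lines, with 1 symbol per scaling and dashed lines at 2-fold. Kit and Met in B16-RIIL lie above the upper dashed line with every symbol, whereas Igf1r in B16-RII lies above it with the deposited signals alone.

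The measured genes nearest to Kit and Met on the chromosome did not share the size of these differences. For each gene, the nearest 3 genes on each side with a probe detected on every array were taken, in the gene order of GRCm38.p6 and after the receptor values were known. Around Kit these were Usp46, Fip1l1, Chic2, Srd5a3, Tmem165 and Clock, and their differences from B16 in B16-RIIL ran from -0.51 to 0.75 with a median of 0.14 (Kit, 1.90). Around Met they were Tfec, Tes, Cav2, Capza2, St7 and Lsm8, which ran from 0.05 to 0.78 in B16-RII (Met, 1.38) and from -0.03 to 0.59 in B16-RIIL (Met, 1.79). The median of the Igf1r neighbours was 0.62 in B16-RI, 0.83 in B16-RII (highest value 1.17) and 0.77 in B16-RIIL, where Igf1r itself was 0.25, 1.09 and 0.36. That of the Axl neighbours was 0.04, 0.53 (highest value 1.07) and 0.24, where Axl was 0.84, 0.91 and 0.38. Pdgfra, on chromosome 5 like Kit, was detected on no array and so could not be taken as a neighbour. Its signals of 0.35 in B16 and 1.16 in B16-RIIL give no fold.

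**Figure D3:**
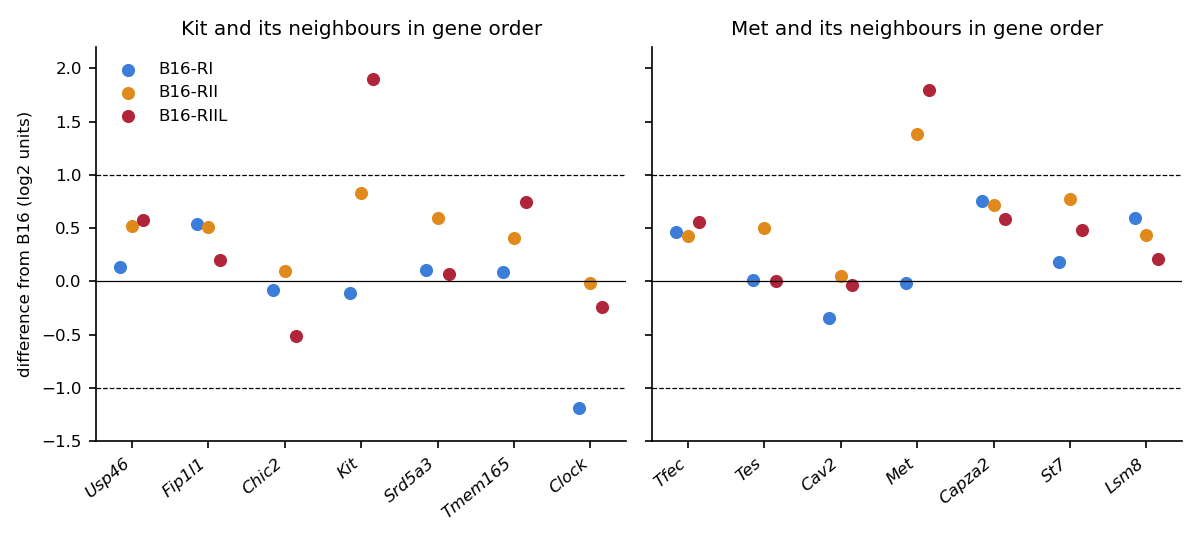
Difference from B16 in log2 units (vertical axis) of Kit, Met and the 3 nearest measured genes on each side in gene order (horizontal axis, not to distance), with 1 point per passaged line and dashed lines at 2-fold. Kit and Met in B16-RIIL stand at 1.90 and 1.79, above all the neighbours shown, and the neighbour farthest from 0 is Clock in B16-RI, at -1.19.

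Ligands of the receptors were partly expressed by the lines themselves. Of 25 ligand genes, 23 had a probe, 13 were detected on at least 1 array and 4 on every array. In B16-RI, 4 of the 23 (17.4%) were above B16 and 0 below, where 4.95% and 4.55% of all probes were. In B16-RII, 2 (8.70%) were above and 1 (4.35%) below, against 6.51% and 3.79%, and 1 was above under each of the other scalings. In B16-RIIL, 6 (26.1%) were above and 1 (4.35%) below, against 6.42% and 4.25%. The medians of the 4 measured on every array were 0.31, 0.56 and 0.87 on the log2 scale.

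Pros1, which encodes protein S, a ligand of Tyro3 and Mertk, was the ligand with the clearest difference among those detected on every array. It read 7.88 in B16, 12.73 in B16-RI, 26.27 in B16-RII and 23.60 in B16-RIIL. The lines of the second round were 3.33-fold and 2.99-fold above B16, past the limit under all 5 scalings. Btc, betacellulin, an ErbB ligand, read 2.71, 3.11, 5.63 and 6.68 in the same order. It was 2.46-fold above B16 in B16-RIIL under all 5 scalings past the limit, and 2.08-fold above in B16-RII, past it with the deposited signals alone. Ereg, epiregulin, and Pdgfa were the other ligands detected on every array, and neither was called in any line against B16.

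The remaining called ligands were detected in 1 or 2 lines. Egf, epidermal growth factor, read 0.31, 2.98, 0.58 and 1.44, which put B16-RI at least 9.61-fold and B16-RIIL at least 4.65-fold above B16. Epgn, epigen, also an ErbB ligand, was detected in B16-RI alone, at 3.59 against 0.38 in B16, at least 9.45-fold higher. These genes encode ligands of Egfr, whose own probe was not well above background in any line. Igf2, a ligand of Igf1r, was detected in B16 alone, at 1.95 with an S/N of 4.88. It was at least 4.33-fold lower in B16-RII, the line with the highest Igf1r signal, and at least 3.05-fold lower in B16-RIIL. Fgf1, Fgf2 and Pdgfd were detected in B16-RIIL alone, where Fgf1 was at least 3.01-fold and Pdgfd at least 2.65-fold higher than in B16, and Fgf2 read 1.08 against 0.36 in B16. Kitl, stem cell factor, passed detection in B16-RI alone (S/N 3.42), and so did Gas6 (S/N 3.21), whose S/N of 2.85 in B16-RIIL was just below the limit. Hgf, the ligand of Met, was not detected on any array, nor were Tgfa, Areg, Nrg3, Nrg4, Igf1, Pdgfb, Pdgfc, Fgf7 and Fgf10.

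Among 30 other receptor tyrosine kinases, Eph receptors left out, 28 had a probe and 16 were detected on at least 1 array. Against B16, 2 (7.14%) were above and 3 (10.7%) below in B16-RI, where 4.95% and 4.55% of all probes were. In B16-RII, 1 (3.57%) was above and 1 below, against 6.51% and 3.79%, and in B16-RIIL, 2 (7.14%) were above and 2 below, against 6.42% and 4.25%. With centred probe sets, 1 was above and 5 below in B16-RI, 0 and 3 in B16-RII, and 1 and 3 in B16-RIIL. Of all probes detected on both arrays, 1.45% were then at least 2-fold above and 2.72% below in B16-RI, 1.54% and 3.81% in B16-RII, and 1.95% and 3.34% in B16-RIIL. These shares leave out probes detected on 1 array of a pair, which the counts include, and so are no background for the counts. Mertk, the relative of Axl and Tyro3, read 0.53 in B16, 5.67 in B16-RI, 0.50 in B16-RII and 0.56 in B16-RIIL. B16-RI was the one line that detected it (S/N 25.5), at least 10.7-fold higher than B16. Ros1, a receptor known from oncogenic fusions, was detected in B16 alone, at 1.82, and the bounds on how far it was lower were 3.08-fold in B16-RI, 4.92-fold in B16-RII and 4.44-fold in B16-RIIL. Musk, known for the neuromuscular junction, read 2.34, 0.54, 2.40 and 0.98, at least 4.33-fold lower in B16-RI and 2.39-fold lower in B16-RIIL. Ddr2, a collagen receptor, read 18.60, 21.34, 23.88 and 38.41, and its 2.07-fold difference in B16-RIIL passed the limit under 2 of 5 scalings. The other called genes were Ptk7 (at least 2.51-fold lower in B16-RI), Ret (at least 2.44-fold higher in B16-RIIL), Ntrk2 (at least 2.18-fold higher in B16-RI, past the limit under 3 of 5 scalings) and Csf1r, whose 2 probes disagreed.

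Downstream of the receptors, 18 of 20 adaptors and first effectors had a probe, and 16 were detected on at least 1 array. In B16-RI, 2 of the 18 (11.1%) were above B16 and 0 below, against 4.95% and 4.55% of all probes. In B16-RII, 2 (11.1%) were above and 1 (5.56%) below, against 6.51% and 3.79%, and in B16-RIIL, 3 (16.7%) were above and 0 below, against 6.42% and 4.25%. Sos1, the exchange factor that loads Ras, read 5.95, 16.59, 15.10 and 9.22, which was 2.79-fold above B16 in B16-RI under all 5 scalings past the limit and 2.54-fold above in B16-RII under 4 of 5. Pik3r1, the regulatory subunit of PI3K, exceeded B16 by at least 2.84-fold in B16-RII and by at least 4.58-fold in B16-RIIL. Gab1, a docking protein of Met, exceeded B16 by at least 2.31-fold in B16-RI and by at least 4.31-fold in B16-RIIL, and Crkl, an adaptor, was at least 4.40-fold above in B16-RIIL. Pik3cb, a catalytic subunit of PI3K, was at least 2.82-fold lower in B16-RII.

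Of 17 negative regulators of receptor signalling, 15 had a probe and 13 were detected on at least 1 array. In B16-RI, 1 of the 15 (6.67%) was above B16 and 2 (13.3%) below, against 4.95% and 4.55% of all probes. In B16-RII, 4 (26.7%) were above and 1 (6.67%) below, against 6.51% and 3.79%. With the 75th percentile as scale or with centred probe sets, 1 was above and 3 below there. The probes detected on both arrays turned the same way. Of these, 6.68% were at least 2-fold above and 1.10% below in B16-RII as deposited, 2.28% and 3.46% with the 75th percentile, and 1.54% and 3.81% with centred sets. The counts of regulators also include genes detected on 1 array of the pair, so these shares are no background for them. In B16-RIIL, 2 (13.3%) were above and 0 below, against 6.42% and 4.25%. Igf2r, which binds Igf2 and carries it to the lysosome, read 21.31, 29.16, 52.75 and 52.05. It was 2.44-fold above B16 in B16-RIIL under all 5 scalings past the limit, and 2.48-fold above in B16-RII under 2 of 5. Cbl, the ubiquitin ligase that marks Met, Egfr and Kit for degradation, was detected in B16 at 1.51 and in B16-RIIL at 2.45, and was at least 2.70-fold lower than B16 in B16-RI and at least 2.25-fold lower in B16-RII.

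Lrig1, a membrane protein that lowers ErbB and Met levels, read 3.06, 3.92, 6.14 and 1.85. It was 3.32-fold lower in B16-RIIL than in B16-RII under all 5 scalings past the limit, and its 2.01-fold difference between B16-RII and B16 passed it under 1. Socs3, an inhibitor of cytokine receptor signalling, read 14.74, 13.01, 12.51 and 29.62, and B16-RIIL was 2.37-fold above B16-RII under all 5 scalings past the limit. Its 2.01-fold difference between B16-RIIL and B16 passed under 2. Lrig3 was detected in B16-RII alone, at least 3.28-fold above B16. Ubash3b, which encodes a phosphatase that acts on receptors, read 5.57, 11.16, 12.51 and 9.51, and its differences of 2.00-fold in B16-RI and 2.25-fold in B16-RII passed the limit with the deposited signals alone. The 2 probes of Socs2 disagreed, and 1 of them was at least 2.81-fold lower in B16-RI.

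**Figure D4:**
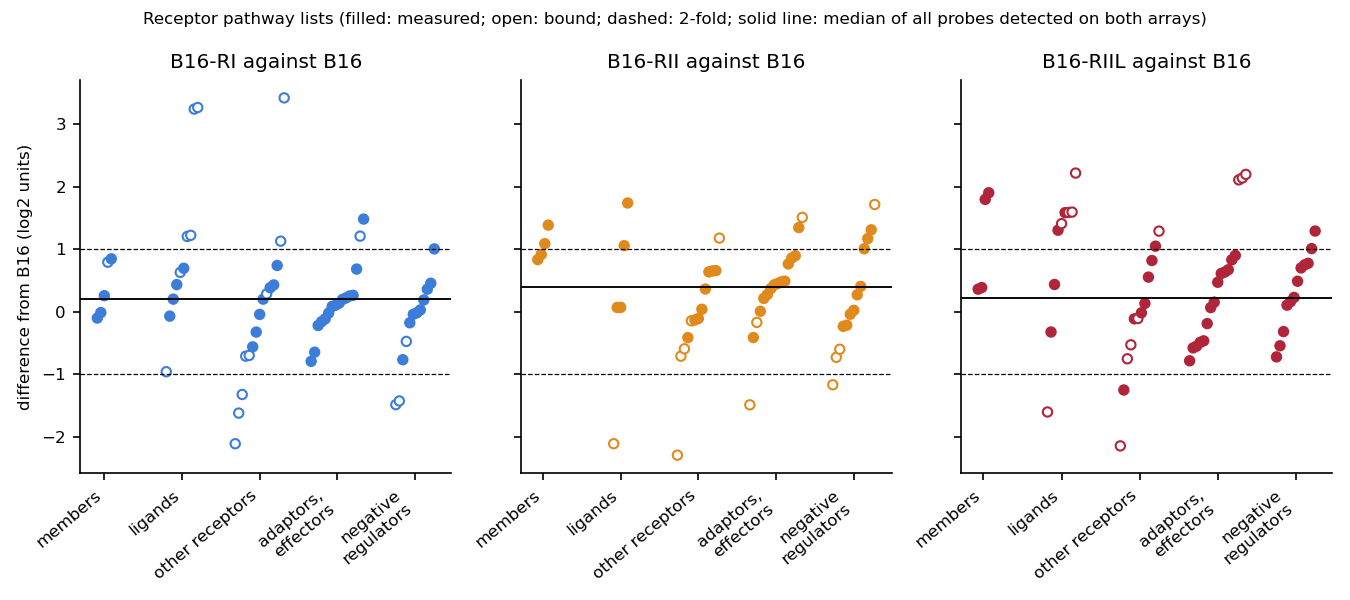
Difference from B16 in log2 units (vertical axis) of the receptors followed here, their ligands, other receptor tyrosine kinases, adaptors and first effectors, and negative regulators, in each passaged line, 1 point per probe with a measured or bounded difference. Filled points were measured on both arrays, open points are bounds, dashed lines mark 2-fold, and the solid line is the median of all probes detected on both arrays (0.21, 0.40 and 0.21). The largest values are open points of Mertk, Egf and Epgn in B16-RI.

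The label of the samples as melanoma was checked with melanocyte genes. Of 9 such genes, 7 had a probe, all 7 were detected on every array, and 0 were called in any comparison. Their summed signal was 7492.9 in B16, 8650.7 in B16-RI, 9413.1 in B16-RII and 8716.0 in B16-RIIL. Markers of other cells that a metastasis could hold were detected in part. Their signal was summed over 1 probe per gene, the one with the highest mean log2 signal, background of undetected probes included. It was 9.47 to 10.98 for macrophage, 75.67 to 102.86 for lymphocyte, 15.39 to 24.67 for fibroblast and 7.57 to 13.16 for lung epithelial genes. Such sums describe a list across arrays and do not compare lists. Between 1 and 3 of 10 macrophage genes passed detection per array, Lyz2 on every array and Cd68, Cd14 and Adgre1 on none. Of 10 lymphocyte genes, 3 to 5 did. Cd79a, with 1 probe at 55.99 to 80.20, Cd5 and Cd2 were detected on every array, and Ptprc, Cd3d and Ms4a1 on none. Of 9 fibroblast genes, 2 to 4 did, and Col3a1, Dcn and Thy1 were on no array. Col1a2 was detected on every array, at 6.32 in B16, 14.96 in B16-RI, 7.40 in B16-RII and 16.66 in B16-RIIL, and Col1a1 and Pdgfrb on 3 each. Among endothelial genes it was 0 or 1 of 10, Pecam1 in B16-RII and B16-RIIL and Cdh5 on no array. Among lung epithelial genes it was 1 to 4 of 9, with Sftpc and Nkx2-1 on no array. Epcam read 1.53, 0.52, 0.36 and 2.10 in B16, B16-RI, B16-RII and B16-RIIL, and Cdh1 read 1.22, 0.40, 0.45 and 1.62, both detected in B16 and B16-RIIL. Scgb1a1 was detected in B16-RIIL alone, Sftpb in B16 alone, and Krt8, by 1 of its 2 probes, on every array. What part such cells had in the receptor signals was not tested. The number of detected probes per array lay between 13872 and 14855.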

How the data were processed

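Total RNA of 4 B16 lines was labelled with digoxigenin, hybridized to Applied Biosystems Mouse Genome Survey arrays and read by chemiluminescence, 1 array per line analysed here. The deposited table held, per array, a raw intensity, a normalized intensity, an S/N score and a flag (another number, used for detection). The methods name quantile normalization in limma, but the deposited normalized intensity equalled the raw intensity divided by 1 of 2 constants per array, for probe sets of 16524 and 16488 probes. From these, log2 differences were computed without a pseudocount (Python 3.11.15, pandas 2.3.3, numpy 2.4.6). Where a side was not detected, its own signal, or the smallest signal that passed detection on its array if that was larger, gave a bound. With 1 array per line there was no test and no SD, and precision is limited by the number of arrays. Depth does not apply to intensities. The calling code was tested on simulated data.

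Symbols were updated through the RefSeq gene table (GRCm38.p6), which matched 16185 of 17302 probes with a symbol. The table names no build, so no probe coordinates are given. Receptors and lists were chosen with earlier results of these data known. All probes of the receptors are named, and in each list the genes called against B16 in at least 1 line, at most the 8 largest. Kitl, Gas6, Ereg and Pdgfa are named outside this rule, after their values were seen, as are the ligands listed as not detected. The neighbouring genes were likewise chosen afterwards. Not used were 30 columns of second arrays, which match no sample label, and 14 columns of log2 values and of the authors' own ratios between the arrays used. Alternatives were other scalings, detection limits and fold limits.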

Additional observations from a re-analysis of the deposited data

How the results depend on the processing

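The limits here are that 1 array per line, the labelled one, was analysed, pooled RNA, 1 probe per receptor and the unequal shift of the 2 probe sets. No paired analysis was possible because the second arrays match no sample label and were not used, and for the same reason no replicate was left out. Of 68 alternative values of the 17 receptor differences, 67 moved by less than 1.5-fold and none turned direction. The exception was Igf1r in B16-RII, 0.49 on the log2 scale after quantile normalization. Of 78 alternative receptor counts, 65 stayed within 1.5 times. The share of all probes called is not given for these alternatives, so the counts that follow cannot be set against a background. The number above B16 in B16-RI, 0, became 2 without the detection filter and 2 at a 1.5-fold limit. In B16-RII, 2 became 1 with quantile normalization, 1 with the median as scale, 1 with the 75th percentile, 0 with centred probe sets, 4 at 1.5-fold and 0 at 4-fold. In B16-RIIL, 2 became 0 at 4-fold. For B16-RIIL above B16-RII, 1 became 0 with median scaling, with centred probe sets and at 4-fold, and for B16-RIIL below B16-RII, 0 became 1 at 1.5-fold. Of 96 alternative counts of the pathway lists, 32 moved by over 1.5 times. The cause was not tested.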
